A study of Mus musculus with 14 samples.

Results

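RZ was compared with vehicle in irradiated mice, using 6 of the 14 hippocampal sections of a MERFISH study (an imaging assay that counts RNA molecules of chosen genes inside outlined cells). The groups were Ir-Rz, 2 sections of irradiated mice given RZ, and Ir-Veh, 4 sections of irradiated mice given vehicle, so radiation was shared by both groups. They held 5748 of the 13602 cells, 1862 in Ir-Rz and 3886 in Ir-Veh. Sections are named by group and imaging run: Ir-Rz 1 and Ir-Rz 9 shared their runs with Ir-Veh 1 and Ir-Veh 9, whereas Ir-Veh 2 and Ir-Veh 12 were each imaged beside a section of an unirradiated mouse. Unirradiated mice given RZ (Ctl-Rz, 3 sections) or vehicle (Ctl-Veh, 5 sections) entered the fits and 1 comparison. RZ is kept as the labels write it. The sources used here did not give the strain, age, radiation dose, RZ dose, timing or number of animals, so p-values measure the spread between sections, which may be technical.

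The series title names BDNF augmentation after cranial irradiation, and the comparison asks what RZ did to the RNA of irradiated hippocampal neurons. Bdnf encodes a secreted neurotrophin that acts through the receptor TrkB and is itself transcribed in response to neuronal activity, in part through the transcription factor CREB. Activity also induces immediate early genes, among them Arc, whose protein acts at active synapses, and the transcription factors Fos and Egr1. In the hippocampal circuit, granule neurons of the dentate gyrus (DG) project to pyramidal neurons of CA3, which project to those of CA1, and granule neurons are known for sparse activity.

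Each cell carried 1 of the authors' 3 excitatory neuron classes, DG_ExN, CA1_ExN or CA3_ExN, with 3447, 1456 and 845 irradiated cells. Their markers followed the names. Fibcd1, a CA1 marker, averaged 6.45 ± 0.950 counts per CA1 cell (SD, n = 6 sections), 0.274 per DG cell and 0.207 per CA3 cell. In CA3 cells the CA3 marker Iyd reached 1.16 ± 0.357 counts per cell, and in DG cells Grm2, the granule neurons' presynaptic glutamate receptor, reached 2.89 ± 1.10. Total counts over the 255 genes measured ran from 137786 in Ir-Rz 9 (413 cells) to 434127 in Ir-Rz 1 (1449 cells), so the 2 RZ sections had the lowest and the highest total of the 6, whereas the median cell of Ir-Rz 9 had the most counts (299, against 196 to 277 in the other 5). A level below is CPM, the gene's counts per 1000000 counts of these genes after scaling of the section total by edgeR's TMM method. A gene is said to have passed at a Benjamini-Hochberg adjusted p under 0.05 in edgeR's quasi-likelihood test.

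No gene passed between Ir-Rz and Ir-Veh. The called share was 0% of the 255 genes tested over all cells, the 252 of DG, the 233 of CA1 and the 218 of CA3, and DESeq2 also called 0 at each level. An unadjusted p under 0.05 was reached by 2, 5, 3 and 4 genes in that order, and the smallest adjusted p was 0.990, 0.997, 0.997 and 0.495. The median log2 fold change of all tested genes was −0.019 over all cells, −0.015 in DG, −0.033 in CA1 and 0.028 in CA3. The median SE of a gene's log2 fold change was 0.38 over all cells, 0.43 in DG, 0.47 in CA1 and 0.53 in CA3.

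The 6 sections also allow a simple count of genes whose groups did not overlap. Over all cells both Ir-Rz sections lay above all 4 Ir-Veh sections for 9 genes (3.53% of 255) and below them for 7 (2.75%). In DG these numbers were 10 and 10 (3.97% each), in CA1 8 and 8 (3.43% each), and in CA3 5 (2.29%) above and 7 (3.21%) below. The genes in these counts depended on the scaling of the sections. On plain section totals, an alternative chosen after seeing the data, 6 genes in DG lay above, of which 2 were among the 10, and 9 lay below, of which 6 were among the 10. Separation of the groups is therefore given below on both scales for each gene where they differ.

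Bdnf, the neurotrophin gene of the series title, had a higher mean in Ir-Rz in every class, without passing the test in any. In DG its level was 4464 CPM in Ir-Rz 1 and 4969 CPM in Ir-Rz 9, against 3472, 3757, 3563 and 3416 CPM in Ir-Veh 1, 9, 2 and 12. Both RZ sections were above the 4 vehicle sections, which lay close together. The means were 4716 ± 357 CPM (SD, n = 2) and 3552 ± 149 CPM (n = 4). The log2 fold change was 0.41 ± 0.30 (SE, 95% interval from −0.20 to 1.02, edgeR adjusted p = 0.997). On plain totals the DG groups overlapped, because Ir-Veh 9 had 4683 per 1000000 counts, above the 4140 of Ir-Rz 1.

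In CA3, Bdnf stood at 3095 and 3841 CPM in Ir-Rz 1 and 9, and at 2047, 2817, 2213 and 1633 CPM in Ir-Veh 1, 9, 2 and 12. The groups did not overlap on this scale, but they did on plain totals, where Ir-Rz 1 had 2745 and Ir-Veh 9 had 3340 per 1000000 counts. The log2 fold change was 0.74 ± 0.45 (95% interval −0.19 to 1.66, edgeR adjusted p = 0.998). In CA1 the level was 1562 and 2506 CPM in Ir-Rz 1 and 9, and 1258, 1698, 1145 and 1061 CPM in Ir-Veh 1, 9, 2 and 12. There Ir-Rz 1 lay below Ir-Veh 9, so the groups overlapped. The CA1 log2 fold change was 0.67 ± 0.35 (95% interval −0.05 to 1.38, edgeR adjusted p = 0.997), and it was 0.23 without Ir-Rz 9.

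Within both shared runs Bdnf was higher in the RZ section in each class. The log2 difference was 0.36 in run 1 and 0.40 in run 9 in DG, 0.31 and 0.56 in CA1, and 0.60 and 0.45 in CA3. With the run as a block in the fit, the log2 fold change was 0.39 in DG, 0.43 in CA1 and 0.59 in CA3. Section by section, run 9 had the higher Bdnf level of runs 1 and 9 in either group, in all 3 classes. Bdnf counts per DG cell, with no scaling, were 1.01 and 1.53 in Ir-Rz 1 and 9, against 0.850, 1.21, 0.557 and 0.514 in Ir-Veh 1, 9, 2 and 12.

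**Figure D1:**
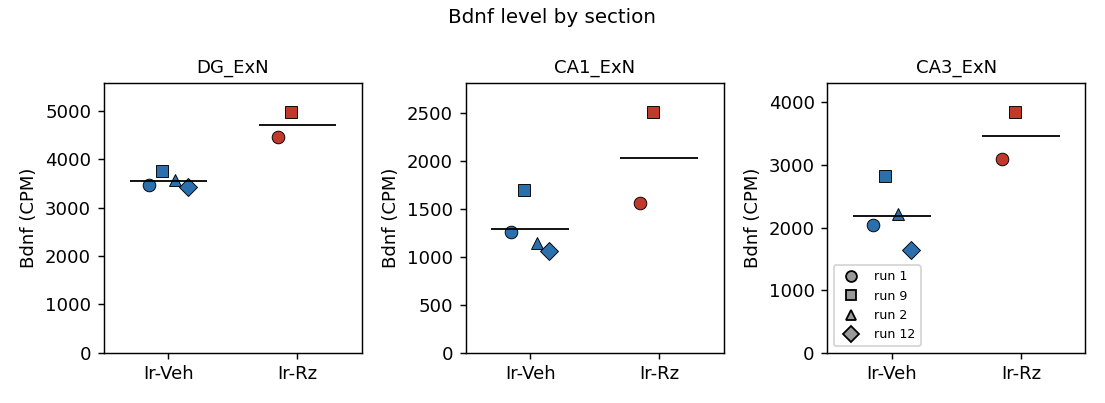
Bdnf level in CPM (vertical axes, from 0) in DG_ExN, CA1_ExN and CA3_ExN neurons of the 4 Ir-Veh (blue) and 2 Ir-Rz (red) sections, with 1 point per section, the marker shape giving the imaging run and the line the group mean. The groups are apart in DG and CA3 on this TMM scale and overlap in CA1, and the square of run 9 lies above the circle of run 1 in every panel.

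Of the other measured genes of neurotrophin and CREB signalling, none passed. The list held 4 genes, Bdnf, Creb1 (CREB itself), Crebbp (its coactivator CBP) and Camk4 (a nuclear calcium kinase upstream of CREB), and 0 were called in either direction at any level. The median log2 fold change of the 4, Bdnf included, was 0.39 over all cells against −0.019 for all genes. Of the 4, 3 were above 0, beside 122 of all 255 genes. Creb1, at 0.48, was at −0.31 without Ir-Rz 9 and at 1.04 without Ir-Rz 1. Camk4 was the gene below 0 over all cells. In CA1 Camk4 stood at 3027 and 3214 CPM in Ir-Rz 1 and 9, and at 3244, 3384, 5668 and 5367 CPM in Ir-Veh 1, 9, 2 and 12. The vehicle sections of runs 1 and 9 were close to the RZ sections of those runs, and those of runs 2 and 12 were far above. The log2 fold change was −0.47 ± 0.36 and became −0.094 with the run as a block, and on plain totals the groups overlapped.

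No immediate early gene passed in DG neurons, where Arc had the smallest p of all genes. Arc stood at 605 CPM in Ir-Rz 1 and 490 CPM in Ir-Rz 9 of DG, against 2841, 869, 1222 and 1560 CPM in Ir-Veh 1, 9, 2 and 12. The RZ sections were the lowest of the 6, and Ir-Veh 1 was far above the other vehicle sections. The means were 548 ± 81.0 CPM (n = 2) and 1623 ± 860 CPM (n = 4). The log2 fold change was −1.55 ± 0.51 (95% interval from −2.60 to −0.49, edgeR adjusted p = 0.997). Within run 1 the log2 difference was −2.23 and within run 9 it was −0.82. Leaving out each section in turn gave −1.76 to −1.13, the smallest size being without Ir-Veh 1. The groups were also apart on plain totals and in counts per DG cell (0.137 and 0.151 against 0.695, 0.280, 0.191 and 0.235).

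Much of the Arc signal in DG came from few cells. In Ir-Rz 1, 57 of 137 Arc counts lay in 10 DG_ExN cells outside Leiden clusters 0 and 3, the deposited expression clusters that hold most DG cells. In Ir-Rz 9 it was 15 of 30 counts in 4 cells. In Ir-Veh 1, 9, 2 and 12 it was 204 of 324 counts in 15 cells, 41 of 123 in 19, 74 of 175 in 14 and 47 of 100 in 19. Most of these cells belonged to the clusters that hold CA1 and CA3 neurons, whose Arc level is far higher. Within Leiden cluster 0 alone Arc was at 366 and 301 per 1000000 counts in Ir-Rz 1 and 9, and at 900, 786, 640 and 584 in Ir-Veh 1, 9, 2 and 12. The RZ sections were again the lowest. The fit on this cluster, which leaves out cluster 3 as well as these few cells, gave a log2 fold change of −1.27, and leaving out cluster 3 alone gave −1.36. No gene passed in either fit, and the part of the few cells on their own was not tested. These clusters were made from the same cells' expression, so levels within one are a description.

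**Figure D2:**
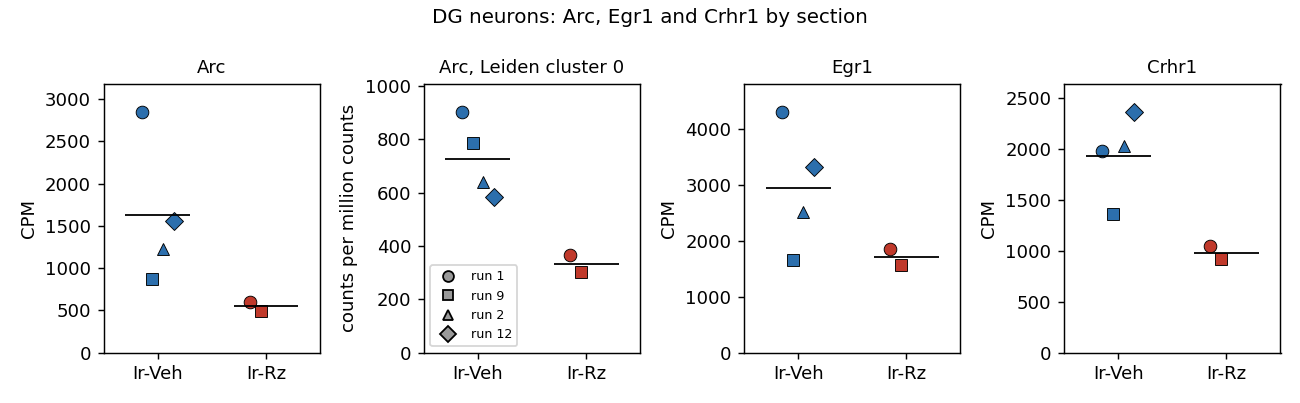
Levels in DG_ExN neurons of the 4 Ir-Veh (blue) and 2 Ir-Rz (red) sections for Arc, for Arc in Leiden cluster 0 alone, for Egr1 and for Crhr1, in CPM (second panel: per 1000000 counts, unscaled), each axis starting at 0, with marker shapes for imaging runs and lines for group means. Both Ir-Rz sections lie below every Ir-Veh section for Arc, in both panels, and for Crhr1. Egr1 overlaps at Ir-Veh 9 on the TMM scale, though not on plain totals of all DG cells. Within Leiden cluster 0, not drawn for Egr1, its groups overlap on plain totals as well.

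Egr1, a transcription factor induced with Arc, stood at 1850 and 1569 CPM in Ir-Rz 1 and 9 of DG, and at 4305, 1666, 2529 and 3322 CPM in Ir-Veh 1, 9, 2 and 12. Ir-Veh 9 lay between the RZ sections, so the groups overlapped. Egr1's log2 fold change was −0.78 ± 0.38 (edgeR adjusted p = 0.997). Fos, of the AP-1 transcription factor, was at 848 and 817 CPM in Ir-Rz 1 and 9 and ranged from 374 CPM (Ir-Veh 9) to 2218 CPM (Ir-Veh 1) in the vehicle sections. Its difference had opposite signs in the shared runs, −1.39 in run 1 and 1.13 in run 9. Over the 9 measured immediate early genes in DG, 8 had a log2 fold change below 0, beside 134 of all 252 genes, and the median was −0.39 against −0.015 for all genes. Fosb (−0.62), Fosl2 (−0.39) and Egr2 (−0.15) were among them, Atf3 (−0.0081) and Egr4 (−0.0082) were near 0, and Homer1 (0.85 ± 0.51), a postsynaptic scaffold gene, was above 0. Homer1 rested on 1 section, at 0.0038 without Ir-Rz 9 and 1.66 without Ir-Rz 1. The count of 8 depended on Ir-Veh 1, without which Fos was at 0.063, Egr2 at 0.039 and Egr4 at 0.41. Egr1 was at −0.54 without that section, and Atf3 was at 0.48 without Ir-Rz 1. Arc, Egr1, Fosb and Fosl2 stayed below 0 whichever section was left out.

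CA1 and CA3 neurons had far more Arc per cell, and no immediate early gene passed in either. Arc stood at 15972 and 10932 CPM in Ir-Rz 1 and 9 of CA1, and at 15420, 11801, 21007 and 13588 CPM in Ir-Veh 1, 9, 2 and 12. The groups overlapped, and the log2 fold change was −0.16 ± 0.34. In CA3 the Arc level was 8365 and 3990 CPM in Ir-Rz 1 and 9, and 10321, 7371, 10103 and 8731 CPM in Ir-Veh 1, 9, 2 and 12. These overlapped as well, since Ir-Rz 1 lay above Ir-Veh 9, though on plain totals both RZ sections were the lowest. The CA3 log2 fold change of −0.50 ± 0.43 was −1.14 without Ir-Rz 1 and −0.016 without Ir-Rz 9. Egr1 differed by −0.096 ± 0.29 in CA1 and −0.20 ± 0.38 in CA3. Of the 9 immediate early genes, 5 had a log2 fold change above 0 in CA1, beside 110 of all 233 genes. Their median there was 0.13, against −0.033 for all genes. In CA3 3 of the 9 were above 0, beside 118 of all 218 genes. The CA3 median was −0.33 against 0.028 for all genes, and the DG median was −0.39.

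**Figure D3:**
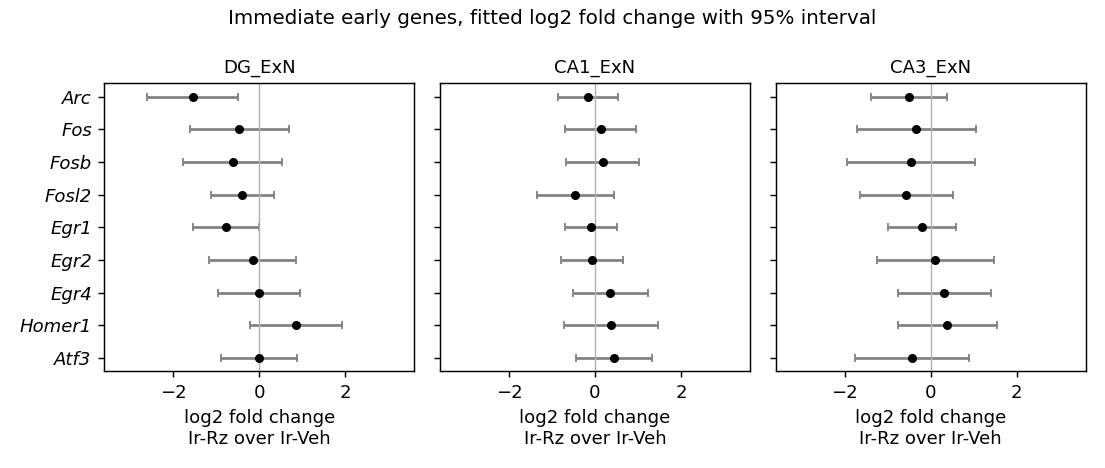
Fitted log2 fold change of Ir-Rz over Ir-Veh (horizontal axes) with its 95% interval for the 9 measured immediate early genes in each class, from edgeR on 14 sections. In DG 8 of 9 points lie at or left of 0, Arc is farthest from it, and most intervals span 0. In CA1 and CA3 every interval spans 0.

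Whether the RZ difference itself differed between classes was tested in 1 edgeR fit over sums per section and class of all 14 sections, with each section as a block. No gene passed for DG minus CA1, DG minus CA3 or CA1 minus CA3 (0% of 252 genes each), while 11, 9 and 6 genes had an unadjusted p under 0.05. Arc had the smallest p for DG minus CA1, with a difference of −1.32 ± 0.34 on the log2 scale (edgeR adjusted p = 0.129). It passed only without Ir-Veh 2, at −1.58 (adjusted p = 0.0123), and over all alternatives its adjusted p ran from 0.0123 to 0.982. For DG minus CA3 the Arc difference was −0.90 ± 0.34 (edgeR adjusted p = 0.999), and it was −0.45 without Ir-Rz 1. No class difference passed for Bdnf, with −0.22 ± 0.28 for DG minus CA1 and −0.27 ± 0.28 for DG minus CA3. The smallest p above 0 for DG minus CA1 belonged to Aqp4, the astrocyte water channel gene (1.45 ± 0.51, adjusted p = 0.507), for DG minus CA3 to Dbh (0.75 ± 0.30, adjusted p = 0.999), and for CA1 minus CA3 to Agtr1a, an angiotensin receptor gene (1.27 ± 0.42, adjusted p = 0.732). Below 0 for CA1 minus CA3 it belonged to Cbln4 (−2.71 ± 0.79, adjusted p = 0.464), at −0.99 without Ir-Rz 1 and −3.38 without Ir-Rz 9.

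Crhr1, the receptor for the stress peptide CRH, was lower in both RZ sections in DG. It was 1 of the 10 DG genes (3.97% of 252) below all 4 Ir-Veh sections. The rule named Crhr1 in DG and CA3 in part for such separation and for within-run differences of 1 sign. Both are therefore a description of this gene. Its DG level was 1046 and 915 CPM in Ir-Rz 1 and 9, and 1982, 1363, 2026 and 2355 CPM in Ir-Veh 1, 9, 2 and 12. The RZ sections were the lowest on both scales and also within Leiden cluster 0 (961 and 973 per 1000000 counts against 1585 to 1945). The means were 981 ± 92.7 CPM (n = 2) and 1931 ± 414 CPM (n = 4). Crhr1's log2 fold change was −0.96 ± 0.37 (95% interval from −1.73 to −0.20, edgeR adjusted p = 0.997). Within run 1 the log2 difference was −0.92 and within run 9 it was −0.57. In CA3 the level was 1744 and 1910 CPM in Ir-Rz 1 and 9 and 2921, 1949, 3494 and 3265 CPM in Ir-Veh 1, 9, 2 and 12. There Ir-Veh 9 was only just above the RZ sections, and the groups overlapped on plain totals (log2 fold change −0.60 ± 0.40, and −0.32 with the run as a block). CA1, chosen for this gene after its values were seen, gave a log2 fold change of −0.51 ± 0.38 with overlapping groups.

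Crh, which encodes the ligand, had a higher mean in Ir-Rz, at low counts. In CA1 Crh stood at 137 and 145 CPM in Ir-Rz 1 and 9, and at 82.3, 111, 19.9 and 14.9 CPM in Ir-Veh 1, 9, 2 and 12. Both RZ sections were the highest, and the vehicle sections of runs 1 and 9 were near them. The sums behind these were 17 and 8 counts in Ir-Rz and 1 to 9 in Ir-Veh. Its log2 fold change was 1.30 ± 0.64 (edgeR adjusted p = 0.997) at 0.0351 counts per cell, and it was 0.56 with the run as a block. Of the 4 measured genes of the CRH and glucocorticoid axis 0 were called in DG, 2 with a log2 fold change above 0, and their median was 0.17 against −0.015 for all genes.

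The other genes with the smallest p-values in DG had low counts. Ctsc, a lysosomal protease gene, stood at 225 and 114 CPM in Ir-Rz 1 and 9 and from 56.5 to 96.5 CPM in the 4 Ir-Veh sections, with 0.0251 counts per cell (log2 fold change 1.26 ± 0.48, edgeR adjusted p = 0.997). Its RZ sections were the highest on both scales. Fezf2, a transcription factor gene, had 35.3 and 98.1 CPM in Ir-Rz 1 and 9 against 98.9 to 140 CPM (−1.07 ± 0.52), and its groups overlapped on plain totals. Ir-Rz 1 weighed most in both genes, since without it the log2 fold change was 0.67 for Ctsc and −0.17 for Fezf2.

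In CA1 the smallest p belonged to Aqp4, which stood at 113 and 90.8 CPM in Ir-Rz 1 and 9, and at 341, 209, 199 and 299 CPM in Ir-Veh 1, 9, 2 and 12. The RZ sections were the lowest on both scales. The sums behind these levels were small, 14 and 5 counts in Ir-Rz and 17 to 29 counts in Ir-Veh, and the log2 fold change was −1.29 ± 0.48 (edgeR adjusted p = 0.997). Aqp4 marks astrocytes, whereas all cells here were annotated as neurons. The 5 measured astrocyte markers summed to 1144 to 1860 CPM in Ir-Rz and 1275 to 1932 CPM in Ir-Veh in CA1, no marker was at 0 in all 6 sections, and their part in the Aqp4 difference was not tested. Adarb2, an interneuron marker, was at 201 and 163 CPM in Ir-Rz 1 and 9 of CA1 and 44.8 to 123 CPM in Ir-Veh (1.23 ± 0.48). Its groups were again apart on both scales, and its counts were also low, at 0.045 per cell. The 10 interneuron markers summed to 16052 to 16464 CPM in Ir-Rz and 9418 to 17118 CPM in Ir-Veh in CA1. Their part in the Adarb2 difference was not tested.

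In CA3 Cbln4, which encodes a secreted synaptic protein, had the smallest p of any gene and class, and the difference lay in 1 section. Cbln4 had 35 counts in Ir-Rz 1 and 6 in Ir-Rz 9, against 6, 5, 2 and 3 in Ir-Veh 1, 9, 2 and 12. The levels were 656 and 127 CPM against 128, 96.5, 58.2 and 71.0 CPM, so Ir-Rz 1 stood alone and Ir-Rz 9 was just below Ir-Veh 1, although it was above it on plain totals. Cbln4's log2 fold change was 2.14 ± 0.62 (edgeR adjusted p = 0.495), 0.53 without Ir-Rz 1 and 2.93 without Ir-Rz 9, where it passed (adjusted p = 0.0352). Its adjusted p over all alternatives ran from 0.0352 to 0.999. Cxcr4, a chemokine receptor gene, was at 206 and 106 CPM in Ir-Rz 1 and 9 of CA3 and 212 to 495 CPM in Ir-Veh (−1.17 ± 0.51), and Gpc3, a glypican gene, at 563 and 531 CPM against 189 to 444 CPM (1.03 ± 0.49). Dlx2, an interneuron transcription factor gene (1.13 ± 0.54), and Folr1, a folate receptor gene of choroid plexus (1.31 ± 0.66), were higher in both RZ sections. Gpc3 overlapped on plain totals and the other 3 of these 4 genes did not, and none of the 4 passed. Counts per cell were low, at 0.067 for Dlx2, 0.093 for Cxcr4, 0.13 for Folr1 and 0.13 for Gpc3. Without Ir-Rz 9 Cxcr4 was at −0.74 and Folr1 at 0.82. In CA3 the 10 interneuron markers summed to 15449 and 18850 CPM in Ir-Rz and 10174 to 16931 CPM in Ir-Veh, and the 2 ependymal markers, Folr1 among them, to 694 and 955 against 349 to 540 CPM. Their part in the Dlx2 and Folr1 differences was not tested.

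Gene groups of synapses, inflammation and degeneration showed no called member in either direction at any level, beside a called share of 0% of all genes. Over all cells the 6 AMPA receptor genes had a median log2 fold change of −0.064 and the 6 NMDA receptor genes one of −0.039, with 2 of 6 above 0 in each. Gria2, the AMPA subunit that limits calcium entry, ranged from 43844 to 59375 CPM in Ir-Rz and from 36972 to 93278 CPM in Ir-Veh, the Ir-Veh sections enclosing the RZ ones. The 5 metabotropic glutamate receptor genes had a median of 0.093, the 6 calcium kinases and sensors −0.034 and the 10 monoamine genes −0.17. The 9 inflammatory signalling genes had a median of −0.29 with 4 above 0, and the 5 complement genes −0.18 with 1 above 0. The 4 measured cell stress and death genes were all above 0, with a median of 0.24, beside 122 of 255 genes in all. The 4 neurogenesis and progenitor genes had a median of 0.050, and Dcx, a marker of young neurons, had 139 and 316 CPM in Ir-Rz 1 and 9 and 90.2 to 302 CPM in Ir-Veh. The 3 GABA genes had a median of 0.18. The 6 amyloid and neurodegeneration genes had a median of 0.011 and the 7 matrix genes one of −0.021.

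Markers of other cells were measured at low levels in these annotated neurons. Summed over all cells, the 8 microglia markers were at 1265 to 1293 CPM in Ir-Rz and 1121 to 1694 CPM in Ir-Veh, the 10 vascular markers at 1549 to 1552 and 1350 to 1755 CPM, and the 3 oligodendrocyte markers at 567 to 584 and 424 to 553 CPM. The oligodendrocyte sums were the ones that did not overlap on this TMM scale, by a narrow margin, and they overlapped on plain totals. Gfap, the astrocyte filament gene, was at 911 and 602 CPM in Ir-Rz 1 and 9 and 795 to 1309 CPM in Ir-Veh (log2 fold change −0.43 ± 0.37), and Cx3cr1, the fractalkine receptor gene of microglia, at 171 and 238 CPM against 151 to 417 CPM (−0.48 ± 0.38). Gfap was at −0.17 without Ir-Rz 9 and Cx3cr1 at −0.22 without Ir-Veh 9.

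Several levels in Ir-Veh 2 and 12 stood apart from those in Ir-Veh 1 and 9. Each run held 1 Ir-Veh section, so run and section cannot be told apart among them. Dbh, which encodes the enzyme that makes noradrenaline, stood at 537 and 739 CPM over all cells in Ir-Rz 1 and 9, at 638 and 510 CPM in Ir-Veh 1 and 9, and at 2375 and 1482 CPM in Ir-Veh 2 and 12. The sections of runs 1 and 9 were alike in both groups. A log2 fold change of −0.98 ± 0.57 became 0.13 with the run as a block, and it was −0.46 without Ir-Veh 2. App, the amyloid precursor gene, moved from −0.35 ± 0.35 to 0.19 in the same way. Only runs 1 and 9 held both groups, so with the block Ir-Veh 2 and 12 did not enter the RZ difference directly. The sign changed with the block for 90 of 255 genes over all cells, 87 of 252 DG genes, 62 of 233 CA1 genes and 60 of 218 CA3 genes. With the block 0 genes passed at any level. Bdnf, Crhr1 and Arc in DG were on the same side of 0 in both fits, at 0.39, −0.76 and −1.65 with the block. Crhr1 was named in part for differences of 1 sign within runs 1 and 9. Its side of 0 with the block followed from that choice.

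**Figure D4:**
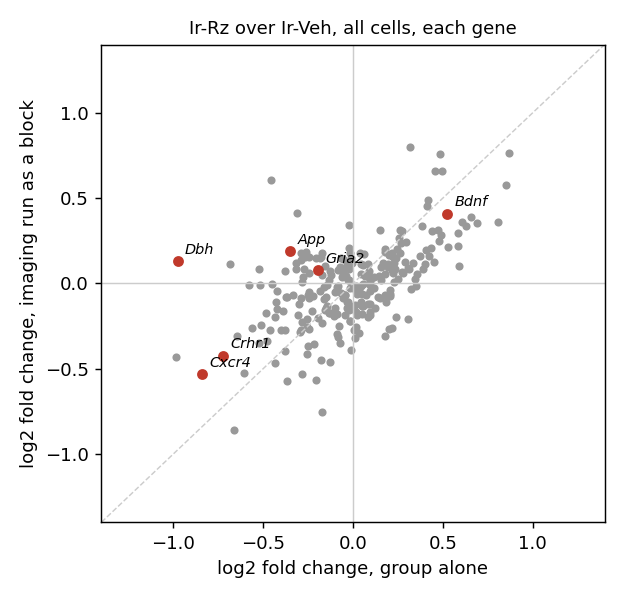
Log2 fold change of Ir-Rz over Ir-Veh for each of the 255 genes over all cells, fitted on group alone (horizontal axis) and with the imaging run as a block (vertical axis), with the line of equality dashed and 6 genes named. Bdnf, Crhr1 and Cxcr4 keep their side of 0, whereas Dbh, App and Gria2 lie below 0 on the horizontal and above 0 on the vertical axis.

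The share of each class did not differ beyond the spread between sections. DG neurons made up 69.1% and 48.2% of the cells in Ir-Rz 1 and 9, compared with 57.1%, 55.4%, 66.9% and 47.0% in Ir-Veh 1, 9, 2 and 12. The 2 RZ sections lay near the opposite ends of the vehicle range. The mean difference was 2.06 percentage points (exact permutation p = 0.733, two-sided), 11.97 within run 1 and −7.18 within run 9. For CA1 the difference was −2.71 points (exact permutation p = 0.467) and for CA3 0.647 points (exact permutation p = 1), and the adjusted p over the 3 classes was 1 for each. With 2 sections against 4 the smallest p this test can give is 0.0667.

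Median counts per cell in CA3 and CA1 were higher in both RZ sections than in any vehicle section. The median CA3 cell had 433 counts in Ir-Rz 1 and 361 in Ir-Rz 9, against 330.5, 262, 305 and 245 in Ir-Veh 1, 9, 2 and 12. The RZ section was higher by 102.5 counts within run 1 and by 99 within run 9. The difference of 111 counts had the smallest p the design allows (exact permutation p = 0.0667, adjusted p over the 4 medians 0.267), which does not pass. In CA1 the medians were 400.5 and 394 for the RZ sections against 347, 265.5, 388 and 248 for Ir-Veh 1, 9, 2 and 12, also without overlap (difference 85.1, exact permutation p = 0.133). In DG they were 242 and 240 against 244.5, 231, 196 and 162 and overlapped (difference 32.6, exact permutation p = 0.333). Counts per unit of cell volume overlapped in CA3, at a median of 0.520 and 0.566 in Ir-Rz 1 and 9 against 0.556, 0.552, 0.333 and 0.363 in Ir-Veh 1, 9, 2 and 12, the volume having no stated unit. The part of cell outlines or section quality in the counts per cell was not tested.

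**Figure D5:**
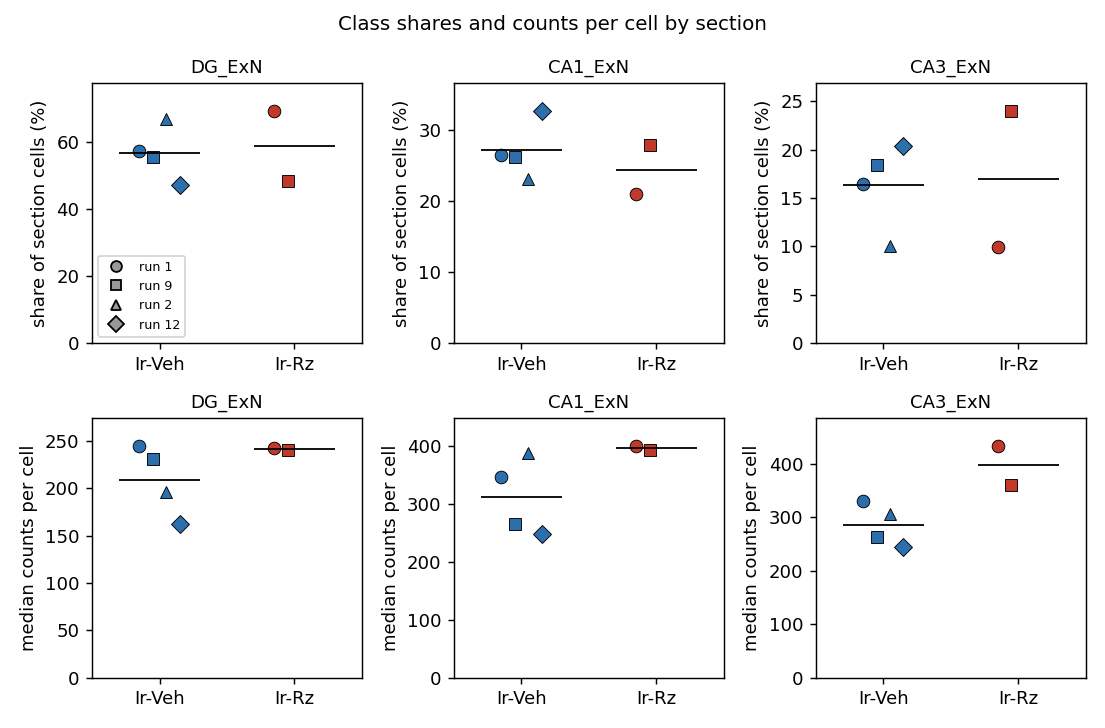
Share of a section's cells in each class (top row, %) and median counts per cell in that class (bottom row) for the 4 Ir-Veh (blue) and 2 Ir-Rz (red) sections, with all vertical axes starting at 0, marker shapes for imaging runs and lines for group means. The shares overlap in every class, and the medians of CA1 and CA3 lie higher in both Ir-Rz sections than in any Ir-Veh section.

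Whether the RZ difference depended on radiation was tested as (Ir-Rz minus Ir-Veh) minus (Ctl-Rz minus Ctl-Veh). No gene passed, with a called share of 0% over all cells and in each class. In DG of unirradiated mice Bdnf averaged 4275 ± 1467 CPM with RZ (n = 3) and 4472 ± 493 CPM with vehicle (n = 5). The difference of RZ effects was 0.50 ± 0.39 on the log2 scale (edgeR adjusted p = 0.997). It was 0.62 ± 0.46 in CA1 and 0.66 ± 0.60 in CA3. Arc in DG stood at 1466 ± 697 CPM in Ctl-Rz and 1785 ± 690 CPM in Ctl-Veh, and the difference of −1.23 ± 0.63 had the smallest p below 0 in DG (edgeR adjusted p = 0.997). Crhr1 in DG was at 977 ± 367 CPM in Ctl-Rz and 1458 ± 281 CPM in Ctl-Veh, so its mean was below that of vehicle in unirradiated mice too, and the difference of RZ effects was −0.39 ± 0.47 (adjusted p = 0.997). Above 0 in DG the smallest p was that of Agt, the angiotensinogen gene (1.08 ± 0.55). Over all cells the smallest p-values were those of Dlx2 (1.06 ± 0.48) and Flt1, a VEGF receptor gene (−1.22 ± 0.58), in CA1 those of Dlx2 (1.11 ± 0.64) and Aqp4 (−1.24 ± 0.60), and in CA3 those of Col6a1, a collagen gene (2.995 ± 1.16), and Fev, a transcription factor gene (−1.29 ± 0.63). Flt1 was at −0.43 without Ctl-Rz 3, Col6a1 at 1.56 without Ir-Rz 1, Aqp4 at −0.79 without Ctl-Rz 3, Agt at 0.71 without Ir-Rz 9 and Arc at −0.81 without Ir-Veh 1.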

How the data were processed

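MERFISH was run on a MERSCOPE instrument on sagittal brain cryosections, with cells outlined by a Cellpose pipeline, per the labels. The authors deposited raw counts, whole numbers of transcripts per cell and gene, with a cell table that names each cell's section, imaging run, class and Leiden cluster. The sources used here did not state how classes were assigned. The table used here held 255 genes, 56.5% to 57.6% of the deposited totals of the irradiated sections. Genes listed alphabetically after Kcnj8, such as Ntrk2, were not used. Unused per-sample columns numbered 0.

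Counts were summed per section over all cells and per class, with no cell removed (6 had under 20 counts) and no doublet caller, since cells were outlined on images. The fits used edgeR 4.0.16 (TMM, filterByExpr, quasi-likelihood test, all 14 sections, group alone) in R 4.3.3, with limma 3.58.1 and DESeq2 1.42.0 for alternatives. The code was tested on simulated data with a fixed spread between sections. That spread was not estimated from these data, so the test checks the code and not the power here. Class shares and medians were compared by two-sided exact permutation over the 15 splits of 6 sections. Python 3.11.15 made the summaries. Members and lists were chosen with earlier results of these data known. Of 27 gene lists, 22 had 3 or more measured members.

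Section numbers are imaging runs, each holding 2 sections. After removal of group means, the 2 sections of a run deviated together (correlation 0.298 to 0.671 in 7 runs). Sections of different runs were not compared in this way, so these values alone cannot show that the numbers pair the sections. With 2 Ir-Rz sections, the deviations of Ir-Rz 1 and 9 from their mean mirror each other, so the values of runs 1 and 9 are not independent. Sections of a group differed beyond sampling noise (chi-square per degree of freedom 44.2 to 100.1). In the cell table the names of runs 1 and 12 share 1 code, so Ir-Veh 1 and Ir-Veh 12 may have come from 1 animal. This cannot be told from the names, and every test and SD counted them as separate sections.

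Genes were named by this rule: Bdnf and the immediate early genes, at most 10 called genes in each class and direction, up to 4 genes per class and direction with 0.2 or more counts per cell, no overlap and both within-run differences of the same sign, the 5 smallest p per class, the 2 members of each list with the smallest p over all cells, and the leading genes, at most 3 per direction, of each test of a difference of RZ effects. Exceptions are stated where they occur, and some genes the rule names are not reported here. Alternatives comprised the run as a block or random effect, DESeq2, other library sizes and gene filters, cells with 20 or more counts, leaving out Leiden cluster 3, core clusters, the irradiated sections alone, runs 1 and 9 alone, and leaving out each section.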

Additional observations from a re-analysis of the deposited data

Results flagged for a closer look

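Among the 78 levels, shares and medians examined over the 4 Ir-Veh sections, 4 had 1 section far from the other 3 by Dixon's ratio, and chance gives about 1 such case in 20. Egr1 in CA1 was at 24095 CPM in Ir-Veh 2 and 15502 to 15879 CPM in the other 3. Bin1, an endocytic adaptor gene, was at 15510 CPM over all cells in Ir-Veh 9 and 23182 to 24570 CPM in the others, and Ir-Rz 9 of the same run had 12666 CPM. Agt, over all cells, was at 146 CPM in Ir-Veh 9 against 102 to 105 CPM, and Ir-Rz 9 had 155 CPM. Itgam, the complement receptor gene of microglia, was at 128 CPM in Ir-Veh 2 against 67.7 to 75.5 CPM.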

How the results depend on the processing

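No gene passed between Ir-Rz and Ir-Veh under any alternative except Cbln4 in CA3 without Ir-Rz 9, so that leaving out each section gave 0 to 1 genes in CA3, and leaving out each section also gave 0 to 1 genes for DG minus CA1 (Arc, without Ir-Veh 2). No gene passed in any alternative for the difference by radiation or the other pairs of classes. Of 85 single-gene results, 58 kept their sign and their side of the threshold in every alternative, Bdnf, Arc in DG and Crhr1 among them. For Crhr1 in DG and CA3 the sign with the block followed from the naming rule. The block on the run changed no call. The following took the opposite sign, and the cause was not tested. With the replicate block the log2 fold changes over all cells were 0.19 for App, −0.070 for Camk2a, 0.12 for Camk4, 0.15 for Crtac1, 0.13 for Dbh, 0.078 for Gria2, 0.086 for Grin1, −0.17 for Grm5 and 0.18 for Kcnab1, and they were 0.016 for Atf3 in DG and 0.037 for Egr1 in CA1. With the block on runs 1 and 9 only they were 0.20 for App, −0.058 for Camk2a, 0.13 for Camk4, 0.17 for Crtac1, 0.14 for Dbh, 0.0068 for Fibcd1, 0.090 for Gria2, 0.098 for Grin1, −0.16 for Grm5 and 0.19 for Kcnab1 over all cells, and 0.0053 for Arc and 0.075 for Egr1 in CA1. Under limma voom with a random run effect they were 0.047 for App, −0.013 for Camk2a, 0.054 for Crtac1, 0.028 for Gria2, −0.11 for Grm5 and 0.044 for Kcnab1, and 0.0093 for Atf3 in DG. In DG, library size alone gave 0.14 for Atf3 and 0.074 for Egr4, deposited totals 0.13 and 0.066, leaving out Leiden cluster 3 gave 0.075 and 0.028, core clusters 0.095 and 0.14 (and 0.32 for Egr2), and the irradiated sections alone 0.0036 for Egr4. With genes of 0.2 or more counts per cell Gria4 over all cells was at 0.0028.

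Leaving out each section in turn gave these ranges across 0. Over all cells they were −0.78 to 0.049 for Bin1, −0.61 to 0.54 for Camk2a, −0.00060 to 0.72 for Cdh5, −0.26 to 0.56 for Cldn11, −0.36 to 0.80 for Col6a1, −0.31 to 1.04 for Creb1, −1.05 to 0.27 for Crtac1, −0.55 to 0.63 for Dcx, −0.072 to 0.61 for Egln3, −0.43 to 0.12 for Gria2, −0.44 to 0.52 for Grm5 and −0.33 to 1.20 for Homer1. In DG they were −0.43 to 0.48 for Atf3, −0.30 to 0.039 for Egr2, −0.40 to 0.41 for Egr4 and −0.76 to 0.063 for Fos, and in CA1 −0.51 to 0.021 for Arc and −0.20 to 0.044 for Egr1. The share differences, in percentage points, ran from −8.39 to 12.51 for DG, −6.14 to 0.727 for CA1 and −6.37 to 7.66 for CA3, and the CA3 mean within runs 1 and 9 was −0.462.

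Scaling moved which genes separated the groups. On plain totals 4 genes lay below over all cells, 6 above in DG, 13 above and 5 below in CA1, and 4 below in CA3, against 7, 10, 8, 8 and 7 with TMM. Library size alone moved the median of all genes over all cells from −0.019 to 0.098, and relative to that median Bdnf was at 0.53 and Crhr1 at −0.65. Depth limits the low genes: 96 of 255 genes had 0.2 or more counts per cell in the irradiated sections.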
